A study of Sus scrofa with 16 samples.

Results

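The oxygen-sensing and blood vessel growth factors described here are 10 genes: HIF1A, EPAS1, EGLN1, EGLN3, VEGFA, ADM, BNIP3, CA9, ANGPT1 and ANGPT2. A probe set, the group of short probes that reports 1 transcript on the array, was taken where its annotation gave 1 of these symbols and no other. That left 8 of the 10 genes (of 6765 named genes on the array), with 19 of the 23999 probe sets tested, while no probe set carried EGLN3 or BNIP3 as its only symbol and these are not analysed here. RNA came from frozen left ventricle of 16 Yorkshire x Landrace pigs, 2 to 3 months old, sampled 3 weeks after an operation that either caused a myocardial infarction (MI, 8 animals) or was a sham (Sham, 8 animals). There were 4 females and 4 neutered males in each group by label, with 1 Affymetrix array per pig. Neither the method of infarction nor the distance of the tissue from the infarct is stated in the labels.

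Cells sense oxygen through the hypoxia-inducible factors. HIF1A and EPAS1 (also called HIF-2 alpha) are the alpha subunits, which prolyl hydroxylases of the EGLN family mark for destruction while oxygen is present, so that much of their control acts on the protein and not on the mRNA. When oxygen falls, the stabilised subunits pair with ARNT and switch on genes such as VEGFA, the main growth factor of blood vessels, ADM, the vasodilator peptide adrenomedullin, and CA9, an acid-regulating carbonic anhydrase. ANGPT1 and ANGPT2 are ligands of the endothelial receptor TEK: the first steadies vessels, and the second, released by endothelium, loosens them during remodelling. After an infarction these genes are known mainly from the early, ischaemic phase.

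Values are log2 signals as deposited, so a difference of 1 is a doubling. Control probe sets with no target RNA in the sample reached 4.99, and a probe set was called above background if its mean in MI or in Sham exceeded that. Of the 19 probe sets 13 were above background and 6 were not. Where a gene had several probe sets, the one with the highest mean over the 16 arrays is called its main probe set. By their control probes the arrays formed 2 sets, which no label names: poly-A spike-in controls stood 1.40 to 2.45 below the hybridisation controls in set A (MI 1 to 6 and Sham 1 to 5) and 3.77 to 4.83 below them in set B (MI 7 and 8, Sham 6 to 8). The array MI 7 is labelled female, but its signal of EIF1AY, a chromosome Y gene, was 9.51, against 9.40 to 9.96 in the 8 animals labelled male and 3.00 to 3.51 in the other 7 labelled female. Cardiomyocyte markers averaged 13.7 to 13.8 in MI and 13.7 to 13.9 in Sham animals, with 0 of 9 differing by limma (0 at an unadjusted p under 0.05).

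The question was whether the RNA of these genes still differed 3 weeks after an infarction. In MI against Sham animals 1 of the 19 probe sets passed, a VEGFA probe set that was lower in MI, where 10.5% of all probe sets passed, 5.14% lower and 5.39% higher in MI. At an unadjusted p under 0.05 there were 2 of the 19, where 23.6% of all probe sets lay under it. Of the 8 main probe sets limma called 0, with none under 0.05 before adjustment, while 7.63% of the main probe sets of all named genes passed. Passing means an adjusted p under 0.05 in a limma fit with group and sex (Benjamini-Hochberg, two-sided). That fit is behind the adjusted p-values of differences given here unless another is named. The exceptions are set B alone and the test between the spike-in sets, whose limma fits held no sex term. A count before adjustment is of unadjusted p-values under 0.05. The median size of the difference was 0.09 over the 19 probe sets and 0.11 over all probe sets, and the median signed differences were -0.05 and -0.0003. For 11 of the 13 probe sets above background, the 95% confidence interval of the difference lay wholly within 1.5-fold in either direction, the exceptions being 1 of VEGFA and that of ADM.

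**Figure D1:**
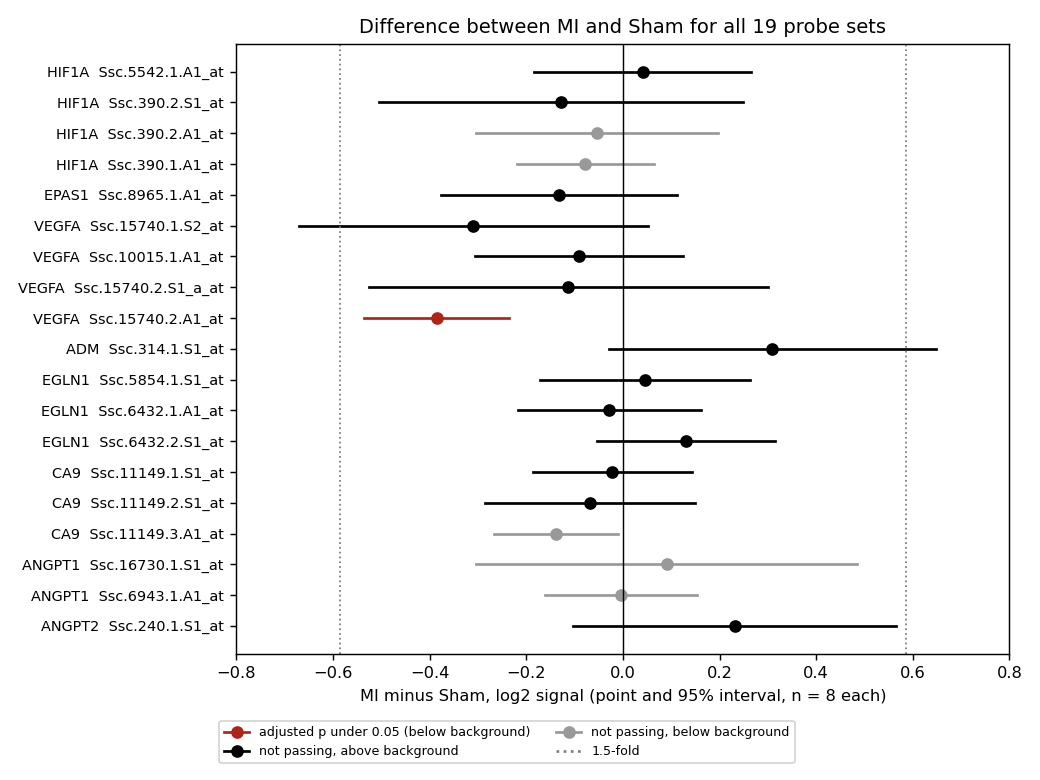
MI minus Sham difference in log2 signal (horizontal axis) with its 95% confidence interval for each of the 19 probe sets, n = 8 animals each; dotted lines mark 1.5-fold. The VEGFA probe set Ssc.15740.2.A1_at, below background, is the one whose adjusted p is under 0.05, and the intervals of the VEGFA main probe set and of ADM reach past 1.5-fold.

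Among the oxygen sensors, HIF1A (Entrez 396696) had a main probe set, Ssc.5542.1.A1_at, with a lowest, median and highest signal of 9.44, 9.95 and 10.34 in MI animals, against 9.48, 9.86 and 10.16 in Sham animals. The groups overlapped almost fully, and the difference was 0.04 (95% interval -0.18 to 0.27, adjusted p = 0.867). A second HIF1A probe set above background, Ssc.390.2.S1_at, ran from 6.29 to 7.13 in MI and from 6.13 to 7.49 in Sham animals, a difference of -0.13 (interval -0.50 to 0.25, adjusted p = 0.729). The other 2 HIF1A probe sets stayed below background on all 16 arrays. HIF1A values differed between the spike-in sets: Ssc.390.2.S1_at ran from 6.13 to 6.82 in set B and from 6.77 to 7.49 in set A, and the main probe set from 9.44 to 9.80 in set B and from 9.83 to 10.34 in set A. For the main probe set the 5 arrays of set B were thus all below the 11 of set A, whichever group they belonged to. How many of all probe sets separated the sets in this way was not counted. The signal of actin probes at the 3' end minus the 5' end, a sign of RNA quality or labelling, also separated the sets, at 1.21 to 1.54 in set B and 2.21 to 3.04 in set A, and its part in the HIF1A values was not tested.

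EPAS1 (Entrez 100037272), the alpha subunit known for its role in endothelium, had 1 probe set. Its lowest, median and highest signals were 8.80, 9.22 and 9.48 in MI animals, against 8.91, 9.32 and 9.70 in Sham animals. The ranges overlapped, and the difference of -0.13 (interval -0.38 to 0.11) did not pass (adjusted p = 0.549). In set A alone the difference was 0.00 (adjusted p = 0.996), and EPAS1 averaged 9.48 ± 0.21 in set B and 9.17 ± 0.19 in set A (SD, n = 5 and 11).

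EGLN1 (Entrez 100153461) encodes PHD2, the hydroxylase that sets HIF levels at normal oxygen, and it is itself a HIF target. Its main probe set ran from 9.50 to 10.13 with a median of 9.80 in MI animals, against 9.46 to 10.08 with a median of 9.73 in Sham animals. Its 3 probe sets, all above background, gave differences of 0.05, -0.03 and 0.13 (adjusted p from 0.405 to 0.894). The narrowest of their intervals, that of Ssc.6432.2.S1_at, ran from -0.05 to 0.32, and 7 of 8 MI animals exceeded the Sham mean.

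**Figure D2:**
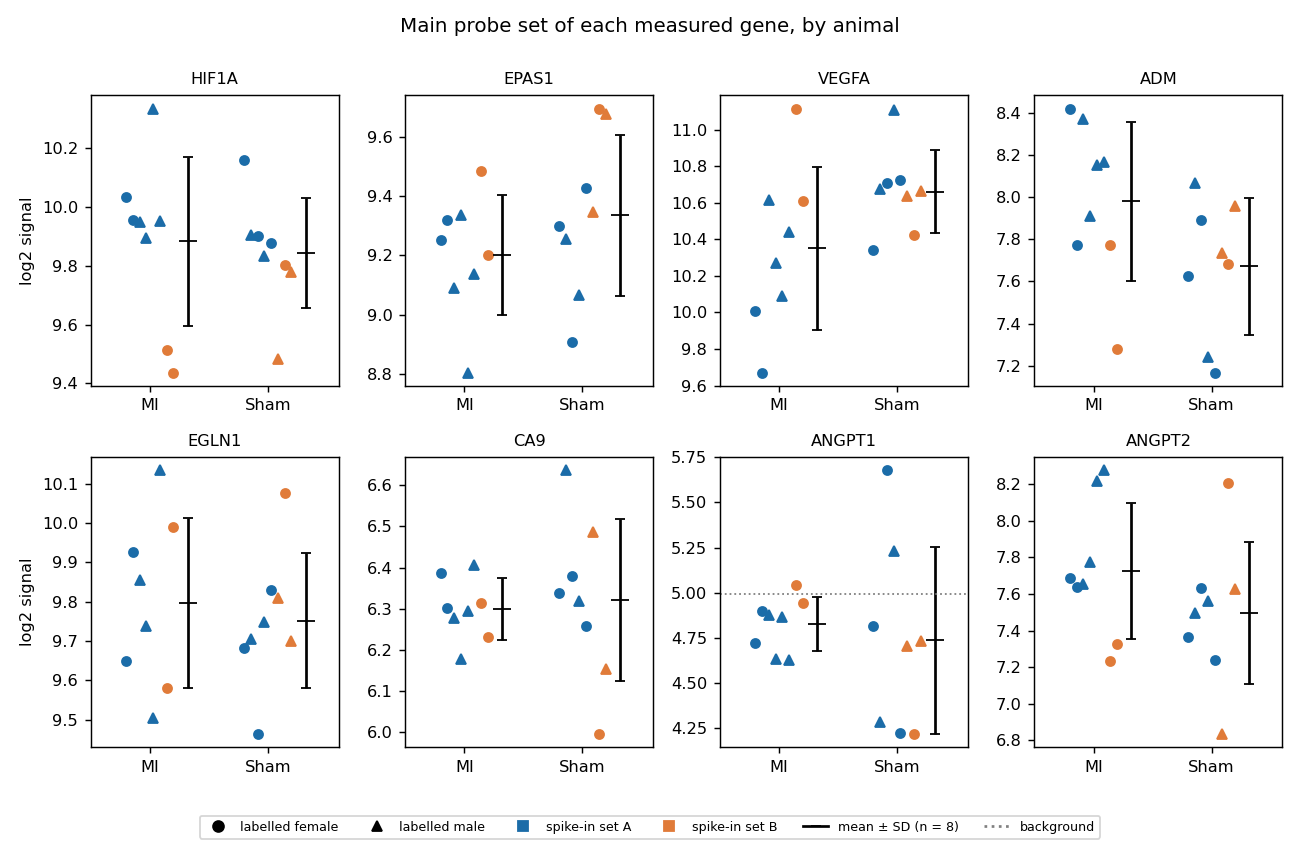
Log2 signal (vertical axis, a scale of its own in each panel) of the main probe set of each measured gene in the 8 MI and the 8 Sham animals; colour gives the spike-in set, shape the labelled sex, and black bars the mean ± SD. The groups overlap in every panel, the 5 set B arrays are the lowest in HIF1A apart from their group, and 7 of 8 MI animals lie above the Sham mean for ADM.

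VEGFA (Entrez 397157) was read by 4 probe sets, which did not give 1 answer. The main one, Ssc.15740.1.S2_at, had a lowest, median and highest signal of 9.67, 10.36 and 11.12 in MI animals, against 10.34, 10.67 and 11.11 in Sham animals. MI 1, 2, 4 and 5 were lower than all Sham animals and 7 of 8 MI animals lay below the Sham mean, but MI 7 was the highest of all 16. The difference was -0.31 (SE 0.17, interval -0.67 to 0.05), and it did not pass (adjusted p = 0.295).

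Within set A this VEGFA probe set ran from 9.67 to 10.61 in 6 MI animals, against 10.34 to 11.11 in 5 Sham animals, a difference of -0.65 that passed (adjusted p = 0.0162). Within set B it was 11.12 and 10.61 in MI 7 and MI 8, against 10.64, 10.43 and 10.66 in Sham 6 to 8, a difference of 0.29 in the other direction (adjusted p = 0.620). MI 7 and MI 8 are labelled female and Sham 6 and Sham 8 male, so group and sex are mixed in set B. Differences in set B, here and below, are plain ones between group means, without the sex term used in set A. With the set as a block the difference was -0.28 (adjusted p = 0.315), and with that block and without MI 7 it was -0.42 (adjusted p = 0.0730). The test of the change in the MI effect between the sets gave a difference of 0.82 (SE 0.29), which did not pass over all probe sets (adjusted p = 0.373).

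The VEGFA probe set that passed, Ssc.15740.2.A1_at, was below background on all 16 arrays, and the strand that its probes target could not be checked. Its lowest, median and highest signals were 3.95, 4.13 and 4.33 in MI animals, against 4.38, 4.52 and 4.68 in Sham animals. All 8 MI animals lay below all 8 Sham animals, which held for 1 of the 19 probe sets and for 1.39% of all probe sets (2.96% did not overlap in either direction). The difference was -0.39 (SE 0.07, adjusted p = 0.00247), a signal 0.77 times that of Sham, and it passed without any 1 animal (adjusted p up to 0.00697) and in set A (-0.45, adjusted p = 0.0082), but not in the 5 arrays of set B (-0.22, adjusted p = 0.599). Among probe sets below background 16.3% passed between MI and Sham, and among those above background 8.02%.

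The remaining 2 VEGFA probe sets were above background and gave smaller differences. Ssc.10015.1.A1_at ran from 9.79 to 10.26 in MI and from 9.55 to 10.23 in Sham animals, a difference of -0.09 (interval -0.31 to 0.12, adjusted p = 0.657). Ssc.15740.2.S1_a_at ran from 6.78 to 7.94 in MI and from 6.65 to 7.93 in Sham animals, a difference of -0.11 (interval -0.53 to 0.30, adjusted p = 0.791). All 4 differences were below 0, but only that of the dimmest probe set passed. The dimmest, Ssc.15740.2.A1_at, shares its ID number with Ssc.15740.2.S1_a_at and differs from it in the suffix. Which strand each of them targets could not be checked, so the call is tied to VEGFA by the annotation alone. The bulk signal cannot tell fewer cells that make VEGFA from less VEGFA RNA in each cell.

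**Figure D3:**
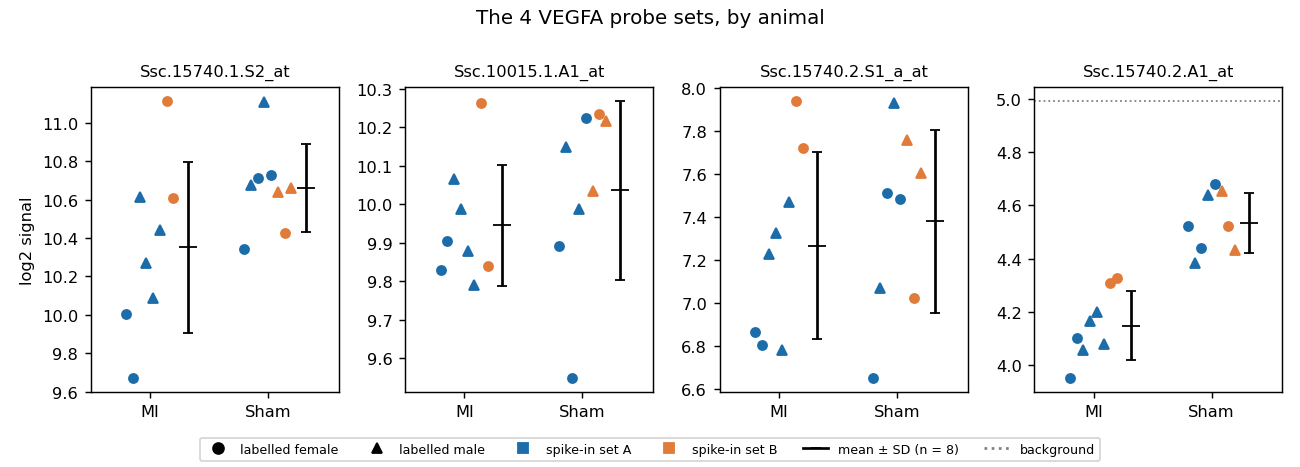
Log2 signal (vertical axis, a scale of its own in each panel) of the 4 VEGFA probe sets in the 8 MI and the 8 Sham animals, with colour for the spike-in set, shape for the labelled sex and black bars for the mean ± SD. Only in Ssc.15740.2.A1_at, which lies under the dotted background level of 4.99, do the groups not overlap, and in Ssc.15740.1.S2_at the set A animals of MI lie low while MI 7 is the highest.

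ADM (Entrez 397195), the vasodilator peptide and a sensitive HIF target, had 1 probe set, Ssc.314.1.S1_at. Its lowest, median and highest signals were 7.28, 8.03 and 8.42 in MI animals, against 7.17, 7.71 and 8.07 in Sham animals. Of the 8 MI animals 7 lay above the Sham mean, with MI 8 low, but the ranges overlapped. The difference was 0.31 (SE 0.16, interval -0.03 to 0.65), or 1.24-fold, and it did not pass (adjusted p = 0.257). It was the largest increase in size among the 19 probe sets.

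The ADM difference also had opposite signs in the spike-in sets, the other way round from the VEGFA main probe set. In set A it ran from 7.77 to 8.42 in MI, against 7.17 to 8.07 in Sham animals, a difference of 0.51 (adjusted p = 0.122). In set B it was 7.77 and 7.28 in MI 7 and MI 8, against 7.73, 7.68 and 7.96 in Sham 6 to 8, a difference of -0.26 (adjusted p = 0.654). The test between the sets gave -0.80 (SE 0.30, adjusted p = 0.403). The adjusted p of ADM stayed between 0.0934 and 0.654 over 27 alternatives, so 0 of them passed by limma.

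CA9 (Entrez 100152792), which is low in normal tissue and often strongly induced by hypoxia, gave 3 probe sets. The main one ran from 6.18 to 6.41 with a median of 6.30 in MI animals, against 5.99 to 6.64 with a median of 6.33 in Sham animals. The MI values lay inside the Sham range, and the difference of -0.02 had an interval of -0.19 to 0.14 (adjusted p = 0.906). The second, Ssc.11149.2.S1_at, was at the edge of background, above it on 9 of 16 arrays, with a difference of -0.07 (adjusted p = 0.757). The third was below background on all arrays, with a difference of -0.14 that had an unadjusted p of 0.0369 but did not pass (adjusted p = 0.175).

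For the angiopoietins, ANGPT1 (Entrez 397009) had 2 probe sets, both below background. The brighter one ran from 4.63 to 5.04 in MI animals, against 4.22 to 5.68 in Sham animals, where Sham 3 was the highest with 5.68 and Sham 4 next with 5.23. It exceeded background on 3 of 16 arrays, and its difference of 0.09 (interval -0.30 to 0.48, adjusted p = 0.830) bears only on a signal near that of empty probes. The SD was 0.15 in MI and 0.52 in Sham animals (n = 8 each).

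ANGPT2 (Entrez 396730) had 1 probe set with a lowest, median and highest signal of 7.24, 7.67 and 8.28 in MI animals, against 6.83, 7.53 and 8.21 in Sham animals. Of the MI animals 6 of 8 lay above the Sham mean, and Sham 7, at 8.21, stood near the top of all 16. The difference of 0.23 (SE 0.16, interval -0.10 to 0.57) did not pass (adjusted p = 0.420). Endothelial markers, which include KDR, TEK and TIE1 and stand for the cells known to release ANGPT2, averaged 8.54 to 8.86 in MI and 8.21 to 9.25 in Sham animals, with 0 of 10 differing by limma (1 at an unadjusted p under 0.05). Their part in the ANGPT2 values was not tested.

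The design also allowed the effect of infarction to be compared between the sexes. For the interaction of group and sex 0 of the 19 probe sets passed in limma's test (2 before adjustment), and 0% of all probe sets did (5.68% at an unadjusted p under 0.05). The 2 were the main probe sets of ANGPT2 and HIF1A. ANGPT2 was 7.65, 7.78, 8.22 and 8.28 in MI males, against 6.83, 7.50, 7.56 and 7.63 in Sham males. The animals labelled male thus did not overlap between the groups, and how many of all probe sets did the same was not counted. In females ANGPT2 was 7.24, 7.33, 7.64 and 7.69 in MI, against 7.24, 7.36, 7.63 and 8.21 in Sham animals, and the ranges overlapped. The MI value of 7.24 was that of MI 7, labelled female but with a male-like EIF1AY signal. It lay inside the range of the Sham males, so counting MI 7 as male would end the separation.

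The difference of ANGPT2 was 0.60 in males (SE 0.22, adjusted p = 0.156) and -0.14 in females (SE 0.22, adjusted p = 0.833), and the interaction, female minus male, was -0.74 (SE 0.31, adjusted p = 0.794). All 4 MI males belonged to set A, and in set A alone the interaction was -0.20, with 0.45 in males and 0.25 in females. With the set as a block in all 16 arrays it was -0.72, with 0.59 in males and -0.13 in females. Without MI 7, whose label and EIF1AY signal disagree, it was -0.66, with no longer any of the 19 probe sets under an unadjusted p of 0.05. For HIF1A the difference was 0.28 in males and -0.20 in females (interaction -0.48, adjusted p = 0.794), and in set A alone the interaction was -0.15.

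**Figure D4:**
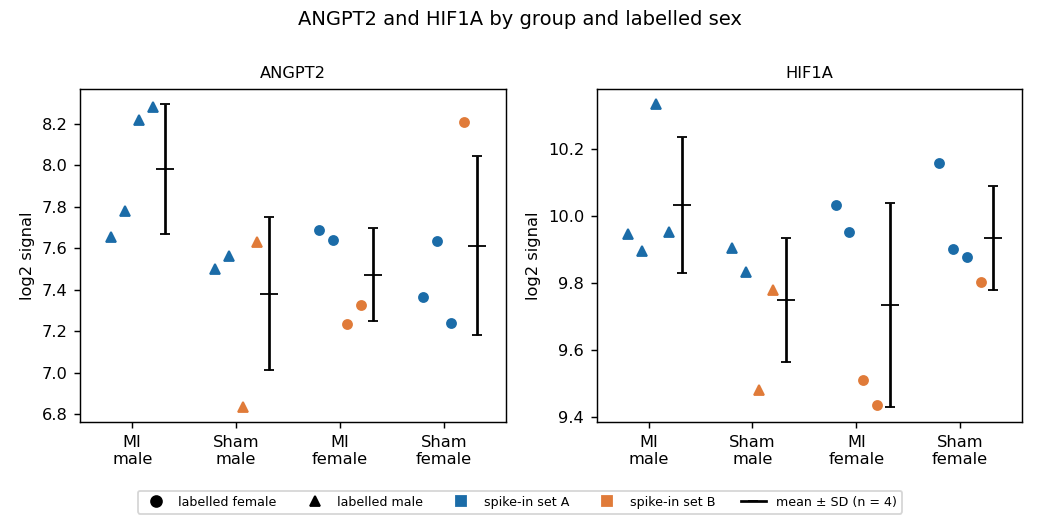
Log2 signal (vertical axis) of the main probe sets of ANGPT2 (left) and HIF1A (right) in MI and Sham males and in MI and Sham females, 4 animals each by the labels, with mean ± SD in black and colour for the spike-in set. The MI males lie at or above 7.65 for ANGPT2 and the Sham males at or below 7.63, and the 2 lowest HIF1A values among MI females are the 2 set B arrays.

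Between females and males over both groups 0 of the 19 probe sets passed in limma's test (0 before adjustment), against 0.0583% of all probe sets (3.11% at an unadjusted p under 0.05). The largest such difference among the main probe sets was that of ADM, -0.25 female minus male (SE 0.16, adjusted p = 0.998). Within males alone, 1 of the 19 passed between MI and Sham, the dim VEGFA probe set Ssc.15740.2.A1_at (-0.40, adjusted p = 0.0377), where 3.40% of all probe sets did. That call was lost with the spike-in set as a term (-0.35, adjusted p = 0.0910) and in set A alone (-0.39, adjusted p = 0.106). Within females 0 passed by limma, where 2.85% of all did, and the same VEGFA probe set differed by -0.37 (adjusted p = 0.0590).

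How the genes varied together was examined over the 11 arrays of set A, with each group centred on its own mean. Of 8 pairs of probe sets above background that read the same gene, 1 passed: the VEGFA probe sets Ssc.15740.1.S2_at and Ssc.15740.2.S1_a_at, with r = 0.819 (permutation p = 0.00213, adjusted p = 0.0170) and rho = 0.791 (permutation p = 0.00548). Their r was 0.946 without the 2 arrays farthest from the median, which here and below is that of the first of the pair alone. The third VEGFA probe set above background, Ssc.10015.1.A1_at, had r = 0.180 and rho = 0.282 with the first (permutation p = 0.602 and 0.404, adjusted p = 0.688) and r = 0.0037 and rho = -0.0091 with the second (permutation p = 0.991 and 0.989). The 2 HIF1A probe sets had r = 0.533 and rho = 0.318 (permutation p = 0.0870 and 0.339, adjusted p = 0.232). Their r was -0.0553 without the 2 arrays farthest from the median of the main probe set, and leaving out arrays by the other probe set was not tried. The EGLN1 probe sets Ssc.5854.1.S1_at and Ssc.6432.2.S1_at had r = 0.71 and rho = 0.618 (permutation p = 0.0181 and 0.0479, adjusted p = 0.0723). Their r was 0.398 without the 2 farthest arrays. Probe sets of 1 gene therefore did not always rank these 11 animals alike, but a pair that did not pass is not shown to disagree.

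Between different genes 0 of 21 pairs of main probe sets passed after adjustment (2 at an unadjusted permutation p under 0.05). The strongest by r were ADM with CA9, r = 0.725 and rho = 0.645 (permutation p = 0.00797 and 0.0375, adjusted p = 0.167, r = 0.484 without the 2 arrays farthest from the median), and EPAS1 with ANGPT2, r = -0.704 and rho = -0.645 (permutation p = 0.0160 and 0.0366, adjusted p = 0.168, r = -0.511). VEGFA and ADM, both HIF targets, had r = 0.0541 (permutation p = 0.873, adjusted p = 0.916) and a rho of 0 to the precision given. HIF1A and VEGFA had the strongest rho, -0.718 (permutation p = 0.0157) but r = -0.442 (permutation p = 0.169, adjusted p = 0.696). The 5 arrays of set B were too few for such values.

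Of 5925 named genes above background, the gene whose main probe set was most like that of each factor over the same 11 arrays was found by the highest Pearson r, as a description chosen from all these genes. EGLN1 was closest to CITED1, a transcriptional co-regulator (r = 0.968, rho = 0.964), and HIF1A to CTSS, the lysosomal protease cathepsin S (r = 0.954, rho = 0.836). ANGPT2 was closest to LOC102157641 (r = 0.944), CA9 to TM4SF5 (r = 0.927), VEGFA to KIAA0141 (r = 0.910), EPAS1 to APBB1 (r = 0.892) and ADM to KCNMA1, a potassium channel (r = 0.883). ANGPT1, below background itself, was closest to HMGB1 with r = 0.914 but rho = 0.609.

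The other genes of the pathway came from 6 lists holding 131 genes, of which 82 were measured, each by its main probe set. Of these 82, 3 rose and 0 fell between MI and Sham, where 7.63% of all named genes passed and 4.12% rose. The 3 were HILPDA, ARNT2 and EDNRB, and 10 of the 82 had an unadjusted p under 0.05. The median difference over the 82 was 0.01.

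HILPDA, a HIF target whose protein sits on lipid droplets and slows fat breakdown, was 1 of 26 measured hypoxia targets. Its lowest, median and highest signals were 6.078, 6.31 and 6.48 in MI animals, against 5.79, 5.98 and 6.075 in Sham animals, so that the groups met but did not overlap. It rose by 0.33 (SE 0.07, adjusted p = 0.0059), or 1.26-fold, in set A by 0.39 (adjusted p = 0.0180), and without any 1 animal by 0.30 to 0.36 (adjusted p up to 0.0144). In set B alone the difference was 0.22 (adjusted p = 0.628). A second HILPDA probe set, also above background, differed by -0.04 (interval -0.18 to 0.10, adjusted p = 0.765), so the rise was seen by 1 of 2 probe sets. Fat cell markers moved in part in the same animals: of 5 measured, PPARG and ADIPOQ (below background) rose and RETN fell, and the list averaged 6.47 to 6.85 in MI and 6.18 to 6.63 in Sham animals. Their part in the HILPDA result was not tested.

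Of the other hypoxia targets 0 of 25 passed in limma's test (1 before adjustment). P4HA2, a collagen prolyl hydroxylase, differed by -0.20 (adjusted p = 0.203) in its main probe set and by 0.09 (adjusted p = 0.666) in a second one above background, and EDN1, the vasoconstrictor endothelin, by -0.23 (adjusted p = 0.439). Of 10 measured genes of the HIF machinery 1 rose: ARNT2, a partner of the alpha subunits found mainly in nerve tissue, by 0.26 (SE 0.07, adjusted p = 0.026). ARNT2 ran from 4.73 to 5.09 in MI and from 4.54 to 4.87 in Sham animals, below background in both means, and the call ended without any 1 of MI 1, MI 3 or Sham 3 to 5 (adjusted p up to 0.0574). The usual partner, ARNT, differed by -0.02 (adjusted p = 0.927, below background), the chaperone HSP90AB1 by 0.13 (adjusted p = 0.204), and EGLN2, another hydroxylase, by -0.06 (interval -0.18 to 0.05, adjusted p = 0.558).

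Of 16 measured hypoxia-inducible genes of glycolysis and glucose uptake 0 passed in limma's test (2 before adjustment). SLC2A1, the basal glucose transporter, had a lowest, median and highest signal of 6.75, 7.14 and 7.55 in MI animals, against 7.08, 7.47 and 8.11 in Sham animals, and its difference of -0.34 did not pass (adjusted p = 0.107). SLC16A3, the exporter of lactate, differed by 0.31 (adjusted p = 0.196), where all 8 MI animals exceeded the Sham mean, and passed once the fit held the spike-in set (0.37, adjusted p = 0.0189). Its signal lay near background, with means of 5.01 in MI and 4.71 in Sham animals, and exceeded that level on 6 of 16 arrays.

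**Figure D5:**
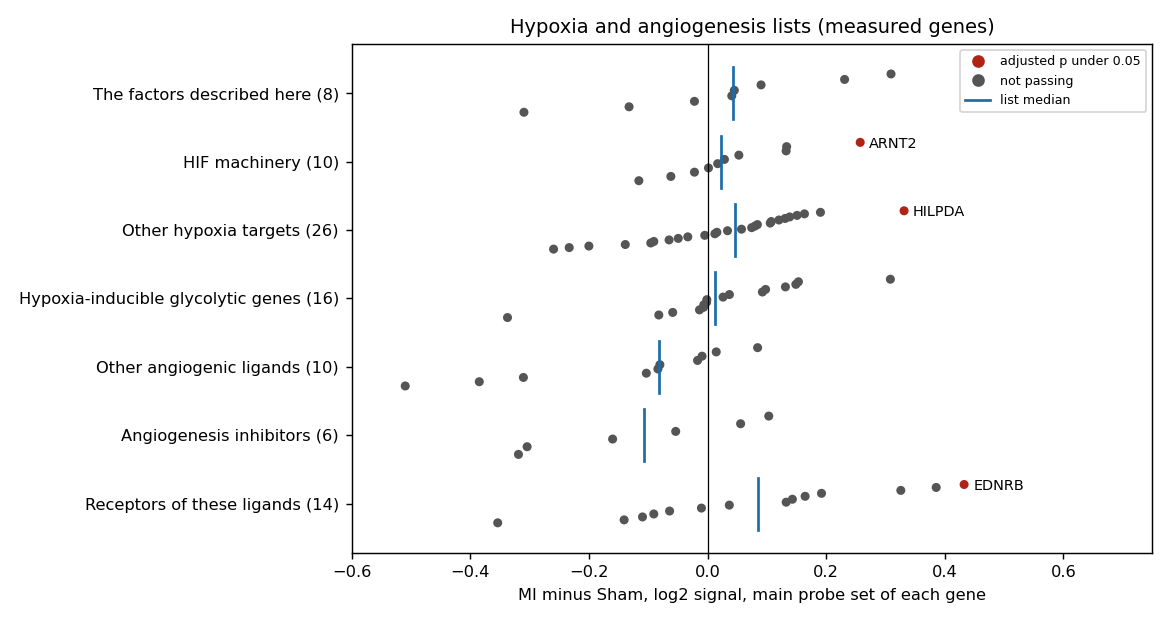
MI minus Sham difference in log2 signal (horizontal axis) of the main probe set of each measured gene, by list, with the number of measured genes in brackets; red points have an adjusted p under 0.05 and blue lines mark list medians. ARNT2, HILPDA and EDNRB are the 3 red points, and the other genes lie between -0.51 and 0.39.

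Of 10 other angiogenic ligands 0 passed in limma's test (1 before adjustment). FGF1, a fibroblast growth factor, had a lowest, median and highest signal of 5.06, 5.26 and 6.10 in MI animals, against 4.99, 5.87 and 6.25 in Sham animals. Its difference was -0.38 (adjusted p = 0.208), in set A -0.63 (adjusted p = 0.0132) and in set B 0.24 (adjusted p = 0.859). The test between the sets gave 0.84 (SE 0.34) for FGF1 and did not pass (adjusted p = 0.436). SPP1, the matrix cytokine osteopontin, differed by -0.51 with wide spread (SE 0.32, adjusted p = 0.383). Of 6 angiogenesis inhibitors 0 passed in limma's test (1 before adjustment), with TIMP3, which blocks VEGF at its receptor, at -0.32 (adjusted p = 0.201) and THBS1, thrombospondin, at -0.30 (adjusted p = 0.451). The other 4 probe sets of THBS1 lay between -0.56 and -0.01 and the other 2 of TIMP3 between -0.18 and -0.01, none passing (lowest adjusted p = 0.167).

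Of 14 receptors 1 rose, the endothelin receptor EDNRB, by 0.43 (SE 0.10, adjusted p = 0.0144), but not in set A alone (0.36, adjusted p = 0.104). Each MI animal exceeded the Sham mean, while a second EDNRB probe set, below background, fell by 0.29 (adjusted p = 0.0375). KDR, the main VEGFA receptor of endothelium, had a lowest, median and highest signal of 5.50, 5.83 and 6.05 in MI animals, against 4.73, 5.40 and 5.92 in Sham animals, with all 8 MI animals above the Sham mean. Its difference of 0.39 (interval 0.06 to 0.71) did not pass (adjusted p = 0.130), and it passed without Sham 2 (0.49, adjusted p = 0.0307). A second KDR probe set rose by 0.31 (adjusted p = 0.0169), but below background on all 16 arrays. FLT1, the other VEGFA receptor, differed by -0.01 (interval -0.38 to 0.36, adjusted p = 0.982), TEK, the angiopoietin receptor, by 0.19 (adjusted p = 0.438) and its relative TIE1 by -0.35 (adjusted p = 0.299). The parts of the adrenomedullin receptor, CALCRL and RAMP2, differed by 0.33 (adjusted p = 0.572) and 0.16 (adjusted p = 0.416).

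Markers of other cells are given beside these results. Red cell markers averaged 6.41 to 7.82 in MI and 6.26 to 6.78 in Sham animals, and 2 of 4 rose, HBM and AHSP. Macrophage and monocyte markers averaged 7.69 to 8.22 in MI and 7.58 to 8.21 in Sham animals, and 1 of 7 rose, CD14, by 0.76 (adjusted p = 0.00314). Smooth muscle and pericyte markers averaged 10.56 to 11.13 in MI and 10.42 to 11.19 in Sham animals, and fibroblast markers 9.78 to 10.40 in MI and 9.81 to 10.83 in Sham animals, with 0 of 6 and 0 of 7 differing in limma's test (none before adjustment either). T and NK cell markers averaged 5.24 to 5.84 in MI and 5.31 to 5.87 in Sham animals, with 4 of 8 higher (CD3D, CD247, CD8B and IL7R) and CD4 lower. Of these, IL7R and CD4 were below background. Neutrophil markers averaged 4.16 to 4.73 in MI and 4.17 to 5.29 in Sham animals, with 1 of 4 higher (MMP9). The others, S100A8, S100A9 and S100A12, were below background. The 3 atrial markers averaged 7.16 to 8.03 in MI and 7.13 to 8.39 in Sham animals, with 0 passing by limma (0 at an unadjusted p under 0.05). Whether these cells contributed to the differences above was not tested.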

How the data were processed

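The deposited values are log2 signals per probe set, as judged from their range of 2.87 to 14.9 and from nearly equal medians in all 16 arrays; how the authors normalized them, and with which software, is not given in the sources used here. Values were used as deposited. Of 24123 probe sets, 124 controls were set aside, 10069 of the remaining 23999 carried 1 gene symbol in the platform annotation, 198 several and 13732 none. Differences were fitted in R 4.3.3 with limma 3.58.1 on all 23999, with 1 coefficient for each cell of group and sex, and adjusted by Benjamini-Hochberg over all. Set B alone was fitted by group only, as it held no MI animal labelled male, and the test between the sets by group and set. The deposited table gives no counts, so the number of animals limits the precision, and the labels do not say more of how animals relate, so p-values measure the spread between these animals. The genes, lists and alternatives were chosen with earlier results of these data known. Named were all probe sets of the factors, the list genes that passed with the next 2 by p in each list, and the most alike gene of each factor; TEK, FLT1, ARNT, CALCRL, RAMP2, the marker genes, the second probe sets of named genes, the test between spike-in sets, set B alone and the alternatives for the interaction and for males were added after the values were seen. Correlations used 100000 permutations. Spike-in set A or B follows the widest gap in 36 poly-A minus 27 hybridisation controls. The fit was tested on simulated data. MI and Sham samples that share a replicate number in their titles are different pigs. They deviated together (correlation over 0.1) in 4 of 8 pairs, and the numbers were not taken as pairs.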

Additional observations from a re-analysis of the deposited data

Results flagged for a closer look

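TIE1, an endothelial receptor, had 2 animals far from the rest of their group. MI 8 had a log2 signal of 7.87, against 6.81 to 7.30 in the other 7 MI animals, and Sham 7 had 8.57, against 7.13 to 7.65 in the other 7 Sham animals. Both arrays belong to spike-in set B. Among 68 groups examined in this way, chance alone flags about 1 in 20 groups. None of the 38 groups formed by the 19 probe sets of the factors themselves was flagged. The difference of TIE1 between MI and Sham was -0.35 in all animals, -0.45 to -0.18 when 1 animal at a time was left out, and did not pass in any of these fits (adjusted p from 0.156 to 0.467).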

How the results depend on the processing

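Of 27 alternatives, 24 kept the count of 1 passing probe set among the factors. It was 0 among the 16000 brightest probe sets, which do not hold the dim VEGFA probe set, 2 in set A alone, where the VEGFA main probe set joined it, and 0 in set B alone, an alternative chosen after seeing the data. The count over all probe sets was 654 among the brightest 16000, while in the main fit 1342 of the 16731 above background passed. The cause of the lower count was not tested. In set B, with 5 arrays, the count was 1. It was 2045 to 2537 when 1 animal at a time was left out, and that of the factors was 1 in each of these fits without 1 animal. The count of passing list genes was 5 with array weights (SLC2A1 and FGF1 joined), 5 with a block for the spike-in set, 5 with that block and without MI 7, 0 in set B, and 2 to 4 without 1 animal; the cause was not tested. Counts for the interaction and for sex were 0 in all 25 alternatives run. With the replicate number of the titles as a block the counts were 1, 2395 and 3, ARNT2 no longer passed (adjusted p = 0.0569) and SLC2A1 did (adjusted p = 0.0293). No other call changed under this block by replicate number. That covers the 19 probe sets of the factors and the main probe sets of the list genes named by their p. Other alternatives did change calls. FGF1 passed in set A alone (adjusted p = 0.0132) and KDR without Sham 2 (adjusted p = 0.0307). SLC16A3 passed when the fit included the spike-in set, both with MI 7 (adjusted p = 0.0189) and without it (adjusted p = 0.0409). ARNT2 failed without any 1 of MI 1, MI 3 or Sham 3 to 5 (adjusted p up to 0.0574). The second probe sets of list genes were not followed through the alternatives. EDNRB did not pass in set A alone (0.36, adjusted p = 0.104). A signal below 4.99 cannot be told from that of empty probes, which limits ANGPT1, ARNT2, 2 of 4 HIF1A probe sets, 1 of 4 of VEGFA and 1 of 3 of CA9. The same limit holds for the markers ADIPOQ, IL7R, CD4, S100A8, S100A9 and S100A12, and SLC16A3 lay near that level.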

Other observations

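Several of the passing values came from dim probe sets whose brighter partner for the same gene did not pass. This held for VEGFA (-0.39 in the dim and -0.31 in the main probe set), KDR (0.31 and 0.39) and FGF1 (-0.29, adjusted p = 0.0221, and -0.38), each pair having the same sign, and for EDNRB the dim and the bright probe set passed with opposite signs (-0.29 and 0.43). In VEGFA, KDR and FGF1 the dim probe set shares its ID number with a brighter one and has A1 in place of S1 in the suffix. Which strand each of them targets could not be checked. Over the array 1185 of 7268 probe sets below background passed and 1342 of 16731 above it.

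By the fit with sex, VEGFA (main probe set), FGF1 and ADM had differences of -0.65, -0.63 and 0.51 in set A. By group means alone, the same genes had differences of 0.29, 0.24 and -0.26 in set B. Such a change was not particular to them. In the limma test between the sets GPI, ANGPTL4, LDHA and MXI1 had lower unadjusted p-values (0.0073 to 0.0098) than these genes. STC1 had the largest change of the list genes, -1.59. Over all 23999 probe sets 1 passed this test of a change in the MI effect between the sets, and 2265 had an unadjusted p under 0.05. Among the 19 probe sets of the factors 0 passed and 2 had an unadjusted p under 0.05.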
